A study of Mus musculus with 6 samples.

Results

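The genes described here are those that the deposited annotation places in the KEGG Spliceosome pathway. The members were the rows whose pathway field held that name, without Dhx15 and without the genes whose symbols begin with Hsp, which gave 142 of the 22322 genes in the table. The pathway field named 148 genes, and the 6 left out were Hspa8, Hspa1a, Hspa1b, Hspa1l, Hspa2 and Dhx15. The rule uses the annotation and no expression value, but it was set with earlier results of these data known. RNA was sequenced from sorted CD4+CD8+ double-positive (DP) thymocytes, the stage at which developing T cells first display a complete T cell receptor. In the conditional knockout (cKO) group, mice carried floxed Paxbp1 alleles, with loxP sites around exon 8, together with an Lck-cre transgene, which is active in the T lineage from the early thymocyte stages. The control group, labelled WT, carried the same floxed alleles without Cre and came from the same litters. Both groups were on the C57BL/6 background, were of mixed sex, were 4 to 7 weeks old and received no treatment, and each was represented by 3 libraries. The labels do not say how many mice went into a library, so the p-values below measure the spread between libraries.

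The spliceosome removes introns from pre-mRNA. It is built anew on each intron from small nuclear ribonucleoproteins (snRNPs), each made of an RNA, a ring of Sm or LSm proteins and proteins of its own. U1 recognises the start of the intron and U2 its branch point, the U4/U6.U5 tri-snRNP then joins, the Prp19 complex stabilises the active form, and RNA helicases drive the steps from one form to the next. SR proteins and hnRNPs bind the pre-mRNA itself and influence which sites are used, and the exon junction complex (EJC) and the export factors mark the spliced product. Thymocytes depend on regulated splicing for the isoforms of Ptprc (CD45), among others.

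Of the 142 members, 126 passed the filter on low counts and were tested. The other 16 were mainly predicted copies of Cdc5l, Alyref and Ppih, with Eif4a3l1, Eif4a3l2 and Rbmxl2. In 13 of these 16 no count was recorded in any library. Gm9045 and Gm9049 had 1 count each, and the counts of Rbm8a2 were 1, 2 and 8 in the controls and 8, 6 and 8 in the cKO group.

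The libraries held 18963775 to 26252248 counts, and levels are given below in CPM, counts scaled to a common library depth, on which a single read adds 0.0381 to 0.0527. Control library 1 stood apart from the rest, with a chi-square per degree of freedom of 54.0 and 64.9 against the other control libraries, whereas those differed by 19.1 and the cKO libraries by 22.8 to 36.1. The targeted gene, Paxbp1, was read at 40.1, 16.3 and 15.5 CPM in control libraries 1, 2 and 3 and at 38.8, 47.1 and 49.6 CPM in the cKO libraries, a log2 difference of 0.92 (SE 0.33, edgeR adjusted p = 0.0977). A count over the whole gene does not measure the floxed exon, so it does not check the genotype, and cKO below means the libraries labelled so. For sorted DP thymocytes of this mouse line, the paper reports loss of Paxbp1 by qPCR and, for the protein, by western blot. The 12 DP thymocyte markers were all present. None had a log2 fold change above 0, beside 49.8% of all tested genes, and their median was -0.39. Of the 12, 4 were called lower in cKO (Cd3e, Cd8b1, Rag1 and Satb1), beside 5.89% of all tested genes. The summed levels of the 12 were 15577 to 18250 CPM in control and 11119 to 13132 CPM in cKO libraries.

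Most tested spliceosome genes had a slightly higher level in cKO DP thymocytes, and few of them passed the test singly. The median log2 fold change of cKO over control was 0.12 over the 126 tested members, with the middle 50% of them between -0.03 and 0.29, beside a median of -0.0017 over all 11488 tested genes. A log2 fold change above 0 was found for 92 members (73.0%), whereas 49.8% of all tested genes had one. With edgeR's quasi-likelihood test and adjustment over all genes, 7 members (5.56%) rose at an adjusted p below 0.05, against a background of 4.47% of all tested genes. No member fell, where 5.89% of all tested genes did. At an unadjusted p below 0.05, 27 members were higher and 4 were lower, beside 13.3% and 14.6% of all tested genes.

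The changes were small in size. None of the members combined an adjusted p below 0.05 with a log2 fold change beyond 1 in either direction, which 2.76% of all tested genes did, and the fitted values of the members ran from -0.76 (Alyref2) to 0.69 (Hnrnpa1). For 118 members (93.7%) the whole 95% interval of the log2 fold change lay within 1 of 0, beside 65.7% of all tested genes. The members were also the more precisely measured genes, with a median SE of 0.13 against 0.19 and a median level of 68.7 FPKM (fragments scaled for gene length and library depth) against 12.9 FPKM over all tested genes. The intervals that reached beyond 1 belonged to Magohb, Alyref, Alyref2, Gm49396, Gm45140, Gm7324, Ppil1 and Prpf40b.

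In 38 members (30.2%) all 3 cKO libraries lay above all 3 control libraries, beside 15.7% of all tested genes. In 8 members (6.35%) all cKO libraries lay below, beside 17.3% of all tested genes. The members as a whole took 3.07 to 3.19% of the counts in control libraries and 3.3 to 3.52% in cKO libraries. Their summed level was 31626, 31105 and 32144 CPM in control libraries 1, 2 and 3 and 32771, 34297 and 35273 CPM in the cKO libraries, so that the groups did not overlap and the ratio of the means was 1.08. From bulk RNA, a change of RNA within DP thymocytes and a change in the mixture of cells cannot be told apart.

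**Figure D1:**
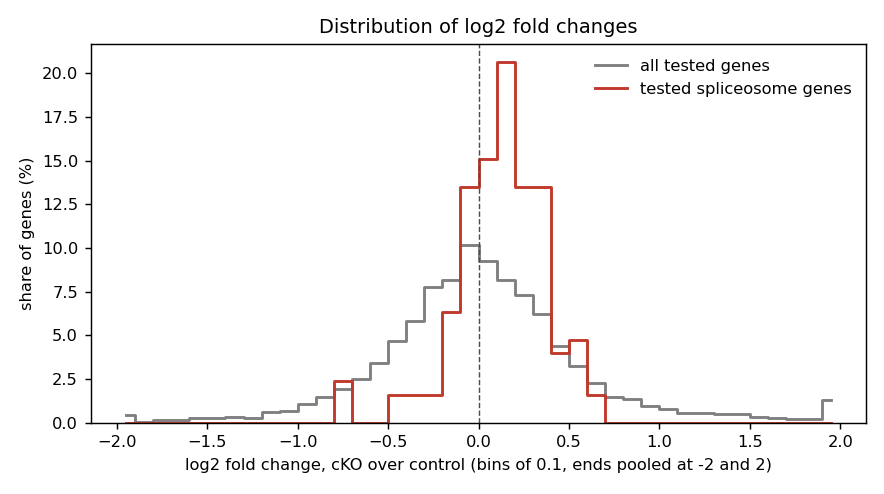
Distribution of log2 fold changes (cKO over control, x axis) as the percent of genes in each bin of 0.1 (y axis), for the 126 tested spliceosome members and for all 11488 tested genes. The members are the narrower distribution, and their median of 0.12 lies to the right of the median of all genes at -0.0017.

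The number of members called depended on single libraries, and the share of all tested genes called moved with it. It was 14 higher and 2 lower without control library 1, when 8.42% of all tested genes were called higher and 8.68% lower. Without control library 2 it was 1 and 0 (1.5% and 1.98% of all tested genes), and without control library 3 it was 4 and 0 (2.42% and 2.98%). Leaving out cKO library 1 gave 4 and 0 (1.53% and 2.45%), leaving out cKO library 2 gave 3 and 1 (2.81% and 3.50%), and leaving out cKO library 3 gave 0 and 0 (0.359% and 0.666%). The median log2 fold change stayed between 0.10 and 0.15 over these refits, with 85 to 94 members above 0, and without control library 1 it was 0.11. Hnrnpa1 kept its call in 5 of the 6 refits, Srsf10 in 4, Isy1 in 3, Srsf2 in 2, and Plrg1 and Prpf4 in 1. The ratio of summed levels was also 1.08 without control library 1.

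Markers of some other cell types differed between the groups. Summed macrophage markers were at 16.0 to 41.0 CPM in control and 57.5 to 75.6 CPM in cKO libraries, with 6 of 10 tested markers called higher and with Marco and Mertk at 0 in every library. Summed NK and innate T markers were at 33.9 to 73.7 and 137 to 162 CPM, nearly all of it Gzma (means of 55.6 and 148 CPM, called higher), while Klrb1c was at 0 in every library and Nkg7 had means of 2.32 and 2.77 CPM (edgeR adjusted p = 0.876). Of the 5 B cell markers only Cd79b was tested and it fell, from a mean of 42.9 to 26.4 CPM, and the others had means below 0.5 CPM in both groups. Summed dendritic cell markers were at 12.03 to 23.5 and 25.2 to 35.6 CPM with none called. The sums overlapped for erythroid markers (26.7 to 141 and 0.685 to 48.4 CPM) and for thymic epithelial markers (16.6 to 19.5 and 16.3 to 23.3 CPM), with none called. Their part in the levels of the spliceosome genes was not tested.

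The members that rose included Hnrnpa1, Srsf10, Isy1, Prpf4, Srsf2 and Plrg1. These 6 belong to different parts of the machinery. They are 1 hnRNP, 2 SR or SR-like proteins, 2 subunits of the Prp19 complex and its relatives, and 1 protein of the tri-snRNP. The share called higher, 5.56% of tested members, was near the 4.47% of all tested genes, so this spread over parts is only a description. The 4.47% is also the background for the counts of called members in each list below. In each of the 6 the cKO libraries all lay above the control libraries, which largely follows from picking them by these same libraries.

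Motifs in the promoters of these members are shown as a description. The members were picked as those called higher, so their shared direction follows from that choice. RefSeq (GRCm38.p6) windows of 250 bases before the start site were found for 94 of the 126 tested members and for 6 of the 7 called ones. The words searched on both strands were CCAAT, bound by NF-Y, TTTCGCGC and TTTGGCGC for E2F, CCGGAAG for ETS factors and GCGCATGCG for NRF1, none of which contains another. The Hnrnpa1 window holds CCAAT 4 times, at 191, 79, 49 and 19 bases before the start, and GENCODE annotates no gene or exon in it. The whole window lies at chr15:103240147-103240396 on the plus strand, with the motif in capitals.
Hnrnpa1: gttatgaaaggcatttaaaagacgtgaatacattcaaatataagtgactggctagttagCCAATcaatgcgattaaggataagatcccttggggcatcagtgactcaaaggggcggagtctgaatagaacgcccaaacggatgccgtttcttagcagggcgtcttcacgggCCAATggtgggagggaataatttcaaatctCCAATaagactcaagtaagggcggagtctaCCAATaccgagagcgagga

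In the windows of Srsf10, Srsf2 and Plrg1, CCAAT stood once each, at 129, 82 and 31 bases before the start, and in that of Isy1 the reverse complement of the ETS word stood at 40 bases. The Prpf4 window held none of the words, and it overlaps an exon that GENCODE annotates for Cdc26 on the other strand. Each motif is given in capitals with 10 bases on either side, on the strand of its gene. The sites lie at chr4:135855932-135855956 (plus), chr11:116853162-116853186 (minus), chr3:83055497-83055521 (plus) and chr6:87838783-87838809 (minus). The windows of Plrg1 and Isy1 run into exons that GENCODE annotates for those genes. The printed Isy1 site spans the GENCODE start of the gene at 87838798. The Srsf10 window (chr4:135855821-135856070) overlaps an exon of Srsf10 and lies wholly inside the GENCODE gene, which starts at 135855747. Its CCAAT therefore lies before the RefSeq start but not before the GENCODE start. The window of Srsf2 overlaps an exon of Mfsd11 on the other strand.
Srsf10: gcgcctggagCCAATgaacggcagc
Srsf2: gccgaatgggCCAATcaggagattc
Plrg1: cggcgggttgCCAATacgcatgtgc
Isy1: ccctccctcgCTTCCGGtccttaattt

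CCAAT was found in 40.4% of the 94 member windows, in 37.6% of 9154 windows of tested genes and in 34.5% of all 27025 windows. For members the window nearest the GENCODE start was taken, and for the other 2 shares the first window listed for each gene. The shares in this paragraph are therefore not from windows chosen alike. The ETS word was found in 35.1% of member windows, 15.1% of those of tested genes and 7.05% of all. The E2F words stood in 4.26%, 1.40% and 0.673%, and the NRF1 word in 5.32%, 3.28% and 1.49%. A word in a window is a description and does not show that a factor binds there.

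Among the hnRNPs, 1 of 9 tested members rose and 7 had a log2 fold change above 0, with a list median of 0.10. That median was 0.16, 0.067 and 0.048 without cKO libraries 1, 2 and 3 in turn. Hnrnpa1, which binds exonic and intronic silencers and often promotes exon skipping, was at 311, 359 and 404 CPM in control libraries 1, 2 and 3 and at 565, 566 and 601 CPM in the cKO libraries. Every cKO library was above the highest control, and the means were 358 ± 46.5 and 577 ± 20.4 CPM (SD, n = 3 each). This was the largest rise among the members, at a log2 fold change of 0.69 (SE 0.12, edgeR adjusted p = 0.00923). The gene lies at chr15:103240432-103246692 on the plus strand (GRCm38, GENCODE M21). Its transcripts share at least 95% identity over at least 200 bases with those of 9 other genes, so that reads could be divided among the copies.

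The other hnRNPs did not pass the test. Hnrnpu, a chromatin- and RNA-binding scaffold protein, was at 1316, 1504 and 1496 CPM in control and 1702, 1786 and 1787 CPM in cKO libraries, so that the groups were apart, at a log2 fold change of 0.29 (SE 0.10, edgeR adjusted p = 0.0948). Hnrnpk, a poly(C)-binding hnRNP and the list's most abundant member at 1203 FPKM, was at 2543, 2763 and 2723 CPM in control and 2434, 2635 and 2563 CPM in cKO libraries, and the groups overlapped. Its log2 fold change was -0.07, with a 95% interval from -0.29 to 0.14. Rbmx, the least abundant at 89.2 FPKM, had a log2 fold change of 0.10 and an interval from -0.23 to 0.44. Its retrotransposed copy Rbmxl1, outside the rule for named genes and chosen after its values were seen, was at 135, 154 and 155 CPM in control and 178, 196 and 225 CPM in cKO libraries, with an edgeR adjusted p of 0.0548.

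Among the SR and SR-like proteins, 2 of 11 rose and 9 had a log2 fold change above 0, with a list median of 0.15. The median was 0.088 without control library 1 and 0.063 without cKO library 3. Srsf10, an SR protein that acts as a splicing repressor when dephosphorylated after heat shock, was at 222, 210 and 223 CPM in control libraries 1, 2 and 3 and at 289, 332 and 393 CPM in the cKO libraries. Control libraries were close together and cKO libraries spread more widely, with means of 218 ± 7.2 and 338 ± 52.1 CPM (SD, n = 3 each). The log2 fold change was 0.63 (SE 0.13, edgeR adjusted p = 0.0160). Srsf10 lies at chr4:135855747-135869908 on the plus strand and shares stretches of up to 551 bases with Gm5446 and Gm9134 at 95% identity or more.

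Srsf2 (SC35), which binds exonic enhancers and promotes exon inclusion, was at 498, 480 and 508 CPM in control libraries 1, 2 and 3 and at 617, 734 and 734 CPM in the cKO libraries. The groups were well separated, at a log2 fold change of 0.49 (SE 0.11, edgeR adjusted p = 0.0234). Srsf2 lies at chr11:116849901-116853094 on the minus strand, and 748 of its exonic bases overlap Mettl23 and Mfsd11 on the other strand. The strand setting of the counting was not given in the sources used here, so reads of these genes may be mixed.

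The SR and SR-like genes described next did not pass the test. Srsf1, the founding SR protein, was at 211 CPM in control library 1 but at 388 and 399 CPM in the other control libraries, and at 320, 363 and 419 CPM in the cKO libraries. Its log2 fold change of 0.15 (SE 0.22) turned to -0.10 without control library 1. Srsf3, a small SR protein also linked to mRNA export, was at 749, 668 and 756 CPM in control and 739, 718 and 786 CPM in cKO libraries, with a log2 fold change at 0.05 and an interval from -0.19 to 0.28. Srsf7, the most abundant SR gene at 532 FPKM, was at 857, 727 and 785 CPM in control and 934, 875 and 912 CPM in cKO libraries, apart but not called (log2 fold change 0.20, edgeR adjusted p = 0.25). Tra2a, the least abundant at 22.2 FPKM, had a log2 fold change of 0.19 with an interval from -0.16 to 0.54.

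**Figure D2:**
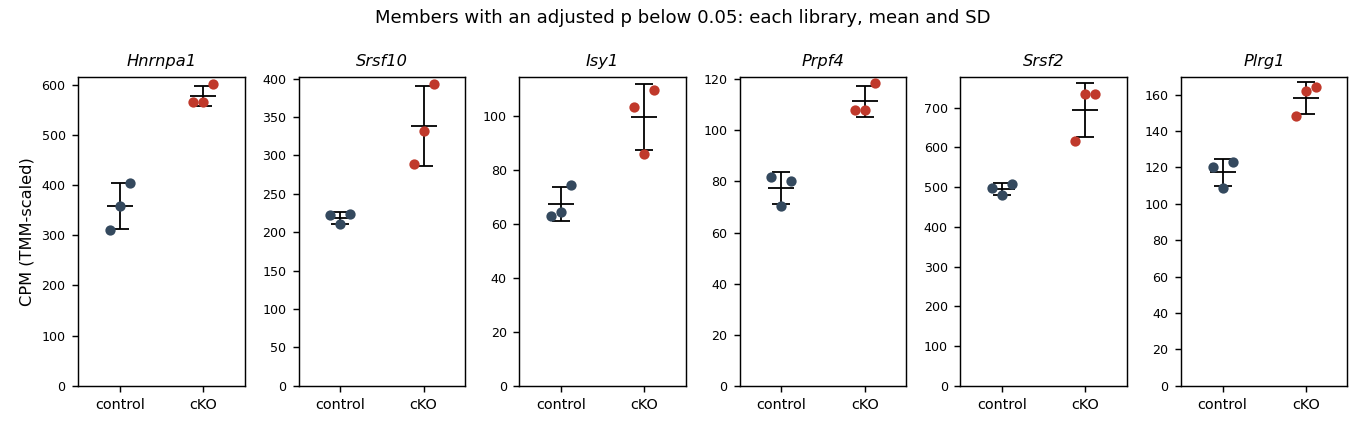
Level in CPM (y axis) of 6 members called higher in each of the 3 control and 3 cKO libraries, with 1 point per library and bars at the group mean and 1 SD on either side. In every panel the cKO points lie above the control points, with means for Hnrnpa1 of 358 and 577 CPM. The members were picked by these same libraries, so this separation largely follows from the choice.

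In the list of the Prp19 complex and related proteins, 2 of 19 members rose and 14 had a log2 fold change above 0, with a median of 0.12. Leaving out control library 2 gave a median of 0.057 with 11 of 19 above 0, and leaving out cKO library 2 gave 0.063. Isy1, a component of the activated spliceosome, was at 63.0, 64.3 and 74.5 CPM in control libraries 1, 2 and 3 and at 103, 86.0 and 109 CPM in the cKO libraries. The lowest cKO library exceeded the highest control, at a log2 fold change of 0.57 (SE 0.14, edgeR adjusted p = 0.0302). Isy1 lies at chr6:87814269-87838798 on the minus strand and shares 747 exonic bases with Gm45140 on the same strand, a gene listed under the same KEGG orthology, so that reads can be assigned to either. Gm45140 itself was at 15.5, 16.8 and 5.59 CPM in control and 20.9, 19.6 and 15.6 CPM in cKO libraries, with overlapping groups.

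Plrg1, a WD-repeat core subunit of the Prp19 complex, was at 120, 109 and 123 CPM in control libraries 1, 2 and 3 and at 148, 162 and 164 CPM in the cKO libraries. The groups were apart, at a log2 fold change of 0.43 (SE 0.11, edgeR adjusted p = 0.0384), the smallest rise among those named. Plrg1 lies at chr3:83055522-83072355 on the plus strand and overlaps no other annotated exon. Prpf19, the ubiquitin ligase after which the complex is named, was at 19.5, 19.2 and 19.96 CPM in control and 23.7, 27.9 and 25.3 CPM in cKO libraries. Its groups were apart, but it was not called (log2 fold change 0.39, SE 0.16, edgeR adjusted p = 0.149).

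Further core subunits did not pass the test. Cdc5l, the Myb-like scaffold of the complex, was at 186, 204 and 184 CPM in control and 198, 230 and 214 CPM in cKO libraries, with overlapping groups and a log2 fold change of 0.16. Bcas2, also a core subunit and chosen after its values were seen, was at 132, 115 and 126 CPM in control and 152, 165 and 165 CPM in cKO libraries, with an edgeR adjusted p of 0.0621. Bud31, the list's most abundant gene at 192 FPKM, had a log2 fold change of 0.16 with an interval from -0.07 to 0.39.

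Ctnnbl1, which binds Cdc5l and was likewise chosen after its values were seen, went the other way. It was at 152, 179 and 181 CPM in control and at 103, 148 and 117 CPM in cKO libraries, so that every cKO library was below every control library. The log2 fold change was -0.48 (SE 0.15, edgeR adjusted p = 0.0662). It was called lower with DESeq2, with the filter removed, with the replicate number as a block and without control library 1 or cKO library 2.

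Of the 18 tri-snRNP members, 1 rose and 10 had a log2 fold change above 0, with a median of 0.09. Leaving out cKO library 2 or 3 gave medians of 0.038 and 0.030. Prpf4, which binds Prpf3 on the U4/U6 RNAs, was at 81.7, 70.3 and 80.0 CPM in control libraries 1, 2 and 3 and at 108, 108 and 118 CPM in the cKO libraries. The groups did not come near each other, and the log2 fold change was 0.53 (SE 0.12, edgeR adjusted p = 0.0239). Prpf4 lies at chr4:62408797-62426990 on the plus strand and overlaps no other exon. Snrnp40 (U5) and Prpf38a, which joins the complex before its activation, were chosen after their values were seen. Snrnp40 was at 153, 187 and 185 CPM in control and 217, 226 and 247 CPM in cKO libraries (edgeR adjusted p = 0.0647). Prpf38a was at 77.1, 79.3 and 83.8 CPM in control and 101, 99.5 and 113 CPM in cKO libraries (edgeR adjusted p = 0.0621).

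None of the large proteins at the catalytic centre was called. Prpf8, the scaffold that holds the active site, was at 246, 260 and 281 CPM in control and 220, 236 and 230 CPM in cKO libraries, all below the controls, at a log2 fold change of -0.20 (SE 0.11, edgeR adjusted p = 0.258). Snrnp200 (Brr2), the helicase that unwinds U4 from U6, was at 332, 311 and 311 CPM in control and 298, 341 and 355 CPM in cKO libraries, with an interval of the log2 fold change from -0.18 to 0.30. Eftud2 (Snu114), the GTPase of U5, was at 202, 224 and 223 CPM in control and 217, 197 and 210 CPM in cKO libraries, with an interval from -0.30 to 0.18.

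Other tri-snRNP members were spread on both sides of 0. Prpf31, which binds U4 and is mutated in retinitis pigmentosa, was at 102, 122 and 122 CPM in control and 140, 125 and 136 CPM in cKO libraries, with an edgeR adjusted p of 0.283. Snu13, the U4-binding protein and the most abundant of the list at 216 FPKM, had a log2 fold change of 0.15 with an interval from -0.14 to 0.43. Ddx23 (Prp28), the helicase that releases U1 and the least abundant at 4.22 FPKM, had a log2 fold change of -0.32 with an interval from -0.93 to 0.28.

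All 7 members of the Sm ring, which is shared by U1, U2, U4 and U5, had a log2 fold change above 0 and none was called, with a list median of 0.33. Snrpe had the smallest p, at 144, 164 and 191 CPM in control libraries 1, 2 and 3 and 234, 209 and 235 CPM in the cKO libraries. The groups were apart, with a log2 fold change of 0.44 (SE 0.13, edgeR adjusted p = 0.0553). Snrpb, the most abundant at 487 FPKM, was at 435, 550 and 589 CPM in control and 583, 586 and 650 CPM in cKO libraries, with a log2 fold change at 0.21 and an interval from -0.08 to 0.50. Snrpd3, the least abundant at 38.2 FPKM, had a log2 fold change of 0.18 with an interval from -0.15 to 0.51.

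Control library 1 was the lowest library for each of these 3 Sm genes. The summed level of the ring was 886, 1114 and 1231 CPM in control and 1318, 1248 and 1356 CPM in cKO libraries, a ratio of the means of 1.21. Without control library 1, the median log2 fold change of the ring was 0.17 and 6 of 7 members were above 0. Snrpn, the neuronal relative of Snrpb, was on the list of genes to be named but is no member and was not tested.

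The 7 LSm proteins, which form the ring on U6, also all had a log2 fold change above 0, with a median of 0.19 and no call. Without control library 1 the median was 0.03 and 5 of 7 were above 0. Lsm2, the least abundant at 67.2 FPKM and the one with the smallest p, was at 35.7, 54.7 and 57.7 CPM in control and 52.3, 69.5 and 69.4 CPM in cKO libraries, with overlapping groups. Lsm4, the most abundant at 186 FPKM, had a log2 fold change of 0.07 that turned to -0.07 without control library 1.

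**Figure D3:**
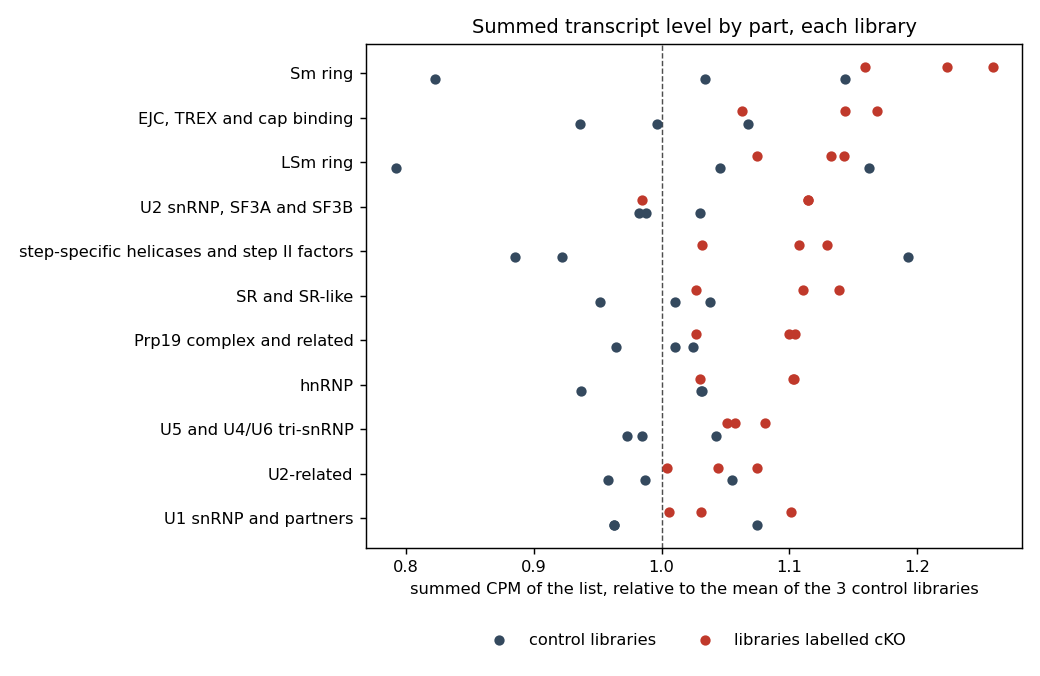
Summed CPM of each part of the splicing machinery (y axis) in each library, divided by the mean of the 3 control libraries (x axis), with 1 dark point per control and 1 red point per cKO library. The ratio of means for the summed Sm ring is 1.21, and its lowest point is control library 1.

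U1 and its partners had a median log2 fold change of 0.01, with 4 of 8 members above 0. Over the refits without 1 library the median ran from -0.026 (without control library 1) to 0.045 (without control library 3). Snrnp70, the U1 protein that contacts the U1 RNA and SR proteins, was at 166, 163 and 191 CPM in control and 141, 160 and 143 CPM in cKO libraries. Its cKO libraries all lay below the controls, but it was not called (log2 fold change -0.23, SE 0.12, edgeR adjusted p = 0.243).

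The range of levels was widest in this list. Ddx5 (p68), an RNA helicase with roles in transcription and splicing, was the most abundant spliceosome gene, at 1393 ± 139 FPKM in control and 1459 ± 71.0 FPKM in cKO libraries (SD, n = 3 each). Its log2 fold change was 0.05 with an interval from -0.17 to 0.28. Prpf40b, a U1-associated WW-domain protein, was at 1.51 FPKM, and its interval from -2.38 to 0.87 leaves its direction undetermined at this depth.

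In the list of U2, SF3A and SF3B, 10 of 12 members had a log2 fold change above 0 and none was called, with a median of 0.19, or 0.12 without control library 1. Sf3b4, a branch-site-contacting subunit, had the smallest p. It was at 214, 222 and 223 CPM in control libraries 1, 2 and 3 and at 260, 285 and 287 CPM in the cKO libraries, apart, at a log2 fold change of 0.34 (SE 0.10, edgeR adjusted p = 0.0638). Sf3b1, which holds the branch point and is mutated in myelodysplasia, was at 1196, 1036 and 1041 CPM in control and 940, 1165 and 1109 CPM in cKO libraries. Its groups overlapped, and its log2 fold change of -0.03 had an interval from -0.29 to 0.24. Sf3b5, the least abundant at 18.8 FPKM, had a log2 fold change of 0.01 with an interval from -0.27 to 0.29.

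The U2-related proteins, which help U2 find the branch point, had a median of 0.03, with 6 of 9 above 0 and none called. The median was -0.025 with 4 of 9 above 0 without cKO library 2, 0.086 without cKO library 1 and 0.051 without control library 3. U2af1, which reads the last bases of the intron, was at 129, 115 and 139 CPM in control and 142, 154 and 169 CPM in cKO libraries, apart, at a log2 fold change of 0.28 (SE 0.12, edgeR adjusted p = 0.171). Its partner U2af2, which binds the polypyrimidine tract, was at 66.6, 64.7 and 68.5 CPM in control and 62.3, 73.2 and 68.2 CPM in cKO libraries, with a log2 fold change at 0.03 and an interval from -0.25 to 0.30. Puf60, a U2af2-like protein and the most abundant at 213 FPKM, had a log2 fold change of -0.08, and Cherp, the least abundant at 26.6 FPKM, one of -0.16, neither called.

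Of the step-specific helicases and step II factors, 5 of 6 had a log2 fold change above 0 and none was called, with a median of 0.16, or 0.28 without control library 1 and 0.11 without control library 2. Dhx16 (Prp2), which acts before the first step, was at 78.1, 68.1 and 70.4 CPM in control and 74.9, 82.1 and 75.9 CPM in cKO libraries. Dhx38 (Prp16), which acts between the steps, was at 188, 110 and 121 CPM in control and 155, 183 and 177 CPM in cKO libraries. Dhx8 (Prp22), which releases the mRNA, was at 205, 163 and 143 CPM in control and 148, 146 and 164 CPM in cKO libraries. In all of these helicases the groups overlapped, and the log2 fold changes were 0.11, 0.30 and -0.16. Prpf18, a step II factor with the smallest p of the list, had a log2 fold change of 0.32 (SE 0.14, edgeR adjusted p = 0.161), and Slu7, the most abundant at 85.4 FPKM, one of 0.04.

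Of the EJC, export and cap-binding proteins, 9 of 13 tested members had a log2 fold change above 0 and none was called, with a median of 0.20, or 0.12 without cKO library 3. Eif4a3, the helicase that clamps the EJC on RNA and the most abundant at 268 FPKM, was at 346, 350 and 419 CPM in control and 398, 412 and 465 CPM in cKO libraries, with overlapping groups. Ncbp2, the cap-binding subunit, was at 37.8, 54.5 and 45.1 CPM in control and 55.5, 62.3 and 69.0 CPM in cKO libraries, apart, at a log2 fold change of 0.44 (SE 0.17, edgeR adjusted p = 0.111). Alyref2, a copy of the export adaptor Alyref and the least abundant at 3.84 FPKM, was at 5.24, 6.94 and 6.29 CPM in control and 4.02, 3.59 and 3.32 CPM in cKO libraries. All its cKO libraries were below the controls, at a log2 fold change of -0.76 (SE 0.32, edgeR adjusted p = 0.152). Its exons overlap another gene on the other strand by 634 bases.

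The 7 tested members placed in no list were Gm16286, Rp9, Ddx42, Thoc2l, Gm49396, Gm45140 and Gm7324. In 4 of them the log2 fold change was above 0, and none was called. Besides Ctnnbl1, Prpf8, Snrnp70 and Alyref2, the members whose cKO libraries all lay below the controls were Gm49396, Ccdc12, Sf3b2 and Zmat2.

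**Figure D4:**
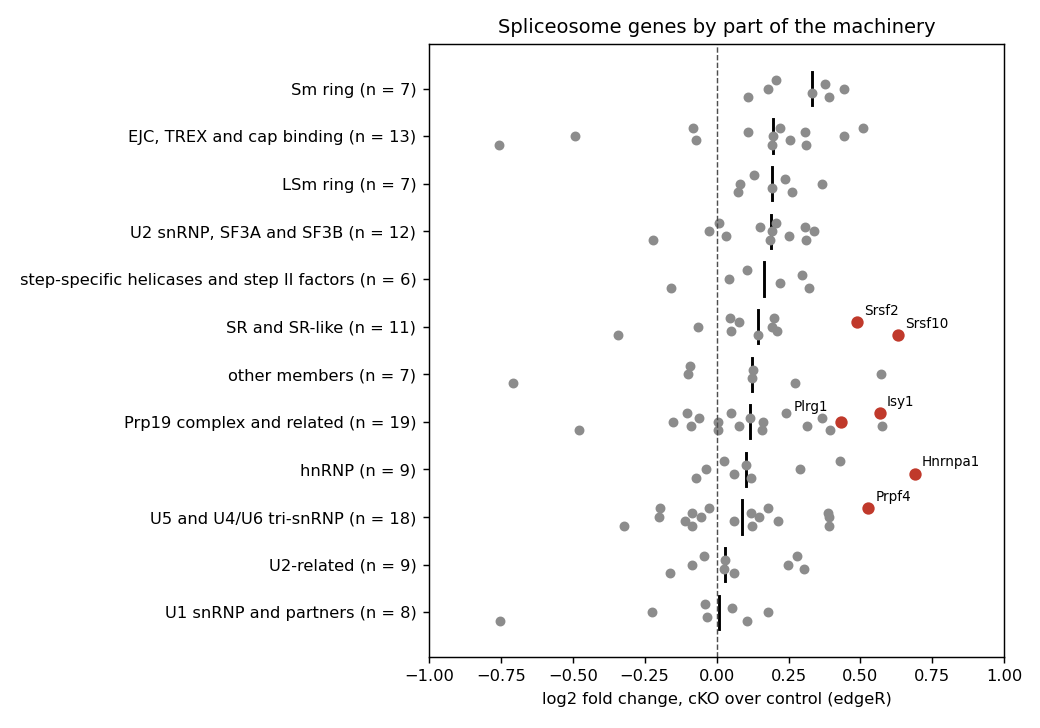
Log2 fold change (cKO over control, x axis) of each of the 126 tested members, grouped by part of the splicing machinery (y axis), with 1 point per gene, called members named and in red (1 called member is not drawn), and the median of each part as a vertical line. The parts' medians run from 0.01 for U1 and its partners to 0.33 for the Sm ring, whose median was 0.17 without control library 1, below the 0.28 of the step-specific helicases.

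Splicing factors outside the pathway list were read in the same fit. Of 11 genes of the minor (U12-type) spliceosome, 6 had a log2 fold change above 0 and 1 rose, Pdcd7, a U11/U12 protein, at 0.54 (edgeR adjusted p = 0.0426). Of 8 splicing kinases, 4 were above 0 and none was called. Of 34 other splicing regulators, 21 were above 0 and 2 fell. Those were Hnrnpl, an hnRNP, at -0.44 (edgeR adjusted p = 0.0443) and Tia1, a U-rich RNA-binding protein, at -0.57 (edgeR adjusted p = 0.0272). The related gene Hnrnpll, in the same list and chosen after its values were seen, went the other way. It was at 0.32 and was not called (edgeR adjusted p = 0.0730). Of 17 genes of snRNP assembly, 10 were above 0 and none was called. The medians of these lists were 0.03, -0.04, 0.05 and 0.11. Beside these counts, 49.8% of all tested genes were above 0, 4.47% were called higher and 5.89% were called lower.

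Of the genes set aside from the pathway list, the chaperone Hspa8 rose from 1988 ± 105 to 3479 ± 341 CPM (SD, n = 3 each), a log2 fold change of 0.81 (SE 0.11, edgeR adjusted p = 0.00408). The helicase Dhx15, which takes spent spliceosomes apart, went from 212 ± 11.7 to 265 ± 17.4 CPM and was not called (log2 fold change 0.33, SE 0.11, edgeR adjusted p = 0.0834).

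The gene structure of the members is given for reference. The called members had a median gene span of 16.8 kb with 13 exons in the longest transcript, beside 13.6 kb and 8 exons over the tested members and 23.2 kb and 8 exons over all tested genes. Median GC content was 46.2%, 47.5% and 49.5%. All genes called higher had medians of 19.2 kb and 9 exons. The longest transcript may be of any type, and those of Snw1 and Tra2b have 1 exon each. With 7 called members, the exon counts are only a rough description. Near-identical stretches in other genes were found for 52 of the 126 tested members, but no transcript of Thoc2l or Gm49396 was searched. Exons overlapped another gene on the same strand in 17 members and on the other strand in 34. Some of the stretches are such overlaps, as for Thoc1 with Usp14 (2169 bases), so these numbers share members. The read counts of all these members may include reads from elsewhere.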

How the data were processed

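Total RNA of sorted DP thymocytes was sequenced from 3 control and 3 Paxbp1 cKO libraries. The authors deposited 1 annotated table with read counts and FPKM values per gene and library, together with columns of their own comparison (log2 fold changes, p-values and adjusted values), which were not used. The deposited counts were tested, and the deposited FPKM values, normalised by the authors for length and depth, served to compare levels between genes. The submitters' processing notes name fastp 0.18.0, Bowtie2 2.2.8, HISAT2, StringTie 1.3.1 and RSEM. The genome build, the annotation and the strand setting were not given in the sources used here. All per-library columns could be assigned to samples, and the 16 rows without a gene name are part of the 22322.

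Counts were tested with edgeR 4.0.16 (R 4.3.3) by the quasi-likelihood test with TMM scaling, a filter by filterByExpr (minimum count 10, minimum total 15) and Benjamini-Hochberg adjustment over 11488 genes. CPM are on the TMM-scaled depth. SE and 95% intervals come from the same fit, SE being the absolute log2 fold change over the square root of F. The fit was tested on simulated data. Alternatives were RLE factors, total counts, DESeq2 1.42.0, limma-voom 3.58.1, no filter, a mean of at least 5 CPM, the replicate number as a block and each library left out, with scaling on non-members added after the data were seen. Identities of transcripts (95% over 200 bases, BLAST), positions and overlaps come from GENCODE M21 (22267 identifiers matched, 142 of 142 members) and promoters from RefSeq. The members and lists were chosen with earlier results of these data known.

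The genes named were those with an adjusted p below 0.05 (up to 10 in each direction at 5 CPM or more), a fixed set of core factors, and in each list the highest and lowest by FPKM and, where none was called, the one with the smallest p. Genes outside this rule are marked in the text. Intervals cover the error that the model estimates from the spread between libraries. The values of 1 called member are not reported here, though it enters the counts and medians.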

Additional observations from a re-analysis of the deposited data

How the results depend on the processing

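The 7 members called higher by edgeR became 16 with DESeq2, when 8.30% of all tested genes were called higher and 8.59% lower, and 13 with a mean of at least 5 CPM, when 6.79% were. The count of members called lower became 1 with DESeq2, with no filter on low counts and with the replicate block, and that member was Ctnnbl1 each time. Under leave-one-out, 0 to 14 members were called higher and 0 to 2 lower, while 0.359 to 8.42% of all tested genes were called higher and 0.666 to 8.68% lower, and the median log2 fold change ran from 0.10 to 0.15. No member passed the fold threshold under any alternative run. Named genes that changed sign did so only when 1 library was left out, and were called in no refit. Their leave-one-out log2 fold changes were Lsm4 from -0.072 to 0.23, Srsf1 from -0.0997 to 0.29, Sf3b1 from -0.093 to 0.061, Sf3b5 from -0.063 to 0.079, Srsf3 from -0.012 to 0.076, Slu7 from -0.067 to 0.25, Rbmx from -0.022 to 0.26 and U2af2 from -0.032 to 0.086. The sign turned for Lsm4 and Srsf1 without control library 1, for Sf3b1 (0.043 and 0.061) without control library 1 or cKO library 1, for Sf3b5 (-0.063 and -0.0100) without control library 1 or cKO library 2, for Srsf3 without control library 2, for Slu7 (-0.067 and -0.039) without control library 2 or 3, and for Rbmx and U2af2 without cKO library 2. The cause was not tested, beyond the smaller number of libraries. Counted over named members and settings together, direction and call were kept in 550 cases, a call was lost in 24 and gained in 11, and the sign changed in 11. Replicate numbers did not pair the samples, since same-numbered libraries correlated at 0.05, 0.04 and -0.03 in their deviations, and with the replicate block 9 members were called higher, including the 7, beside 4.96% of all tested genes (5.81% lower). Scaling on non-members, chosen after seeing the data, gave 7 and 0. Low counts limit Prpf40b, Gm7324 and Alyref2, whose intervals reach beyond 1.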
